A study of Mus musculus with 10 samples.

Results

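A set of 9 genes that mark B cells and myeloid cells were followed through 10 RNA-seq libraries of murine keratinocytes and CD8+ T cells, as traces of leukocytes other than those named on the labels. The list is a list of gene names with no threshold on measured values, although it was drawn up with earlier results of these data known, and it held 3 B cell genes (Cd79a, Cd79b, Ms4a1) and 6 myeloid genes (Lyz2, Csf1r, C1qa, Cd68, Itgam, Cd207). Of these 9 names, 8 were listed in all 10 deposited tables among 25814 genes. Itgam was the exception, since the tables hold 2 overlapping gene models at its place, Itgam_1, which is Itgam in GENCODE, and Itgam_2, which GENCODE names Gm49368.

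The libraries came from 5 groups of 2, all from C57/B6 mice without a transgene or knockout named on their labels. KC alone were primary keratinocytes, per the design text from adult tails, and KC co-culture were such cells from which co-cultured CD8+ T cells had been washed off. T activated were splenic CD8+ T cells, enriched on microbeads and stimulated with antibodies to CD3 and CD28 for 1 d, T medium were activated cells kept for 1 further d in keratinocyte medium (in the study's text, a mix of keratinocyte and T-cell medium), and T co-culture were activated cells kept for 1 further d with keratinocytes. The labels give co-culture as 1 d for the T cells, whereas the design text gives a time in hours. The design text names 2 parallel experiments but does not say which libraries belong to which. The sources used here do not tie libraries to separate animals or cultures, so p-values measure the spread between these libraries, which may be technical. Libraries of KC alone, KC co-culture and T activated carry the numbers 1 and 2 of their labels, whereas a and b only name the libraries of the other groups.

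CD79A and CD79B form the signalling part of the B cell receptor, and Ms4a1 encodes CD20 on the surface of mature B cells. Lyz2 encodes a lysozyme of macrophages and neutrophils, C1qa a chain of complement C1q, and Csf1r the receptor for the growth factor that keeps macrophages alive. CD68 is a glycoprotein of late endosomes and lysosomes, abundant in macrophages, Itgam encodes the integrin chain CD11b, and Cd207 encodes langerin of epidermal Langerhans cells. Spleen, the source of the T cells, is rich in B cells and holds red pulp macrophages. Langerhans cells live among the keratinocytes of the epidermis.

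The libraries held between 12864931 and 18019609 reads on exons, of which 78.2 to 87.2% mapped uniquely. Levels are given in RPKM, reads per kilobase of exon per 1000000 mapped reads, with which genes of different length can be compared. Markers of the labelled cell types were checked first. Cd8a lay between 110.0 and 333.9 RPKM in the T-cell libraries and between 0.118 and 1.16 RPKM in keratinocytes, whereas Krt14 lay between 7240 and 11836 RPKM in keratinocytes and at no more than 61.6 RPKM in T cells. Other genes of T cells were not confined in this way. Cd3g, a chain of the T cell receptor complex, was read at 34.8 and 44.2 RPKM in the number 1 libraries of both keratinocyte groups and at 126.1 and 246.8 RPKM in the number 2 libraries, with KC alone first. The part of such RNA in the results on keratinocytes was not tested.

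All 3 B cell genes were higher in T-cell than in keratinocyte libraries. Cd79a, on chromosome 7 (24897381 to 24902197, plus strand, GRCm38), was read in KC alone at 0.0362 and 0.806 RPKM and in KC co-culture at 0.226 and 1.37 RPKM. In T cells it reached 10.4 and 8.81 RPKM in T activated, 15.9 and 26.9 RPKM in T medium, and 3.29 and 7.28 RPKM in T co-culture. The lowest T-cell library lay above the highest keratinocyte library, and the fit across all 10 libraries gave a log2 fold change of 4.12 (SE 0.82, adjusted p = 0.00316, edgeR). In bulk samples, fewer cells of a type and less RNA per cell cannot be told apart.

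Cd79b, on chromosome 11 (106311341 to 106314762, minus strand), was read in KC alone at 0.479 and 1.81 RPKM and in KC co-culture at 0.230 and 2.16 RPKM. The T-cell values were 12.97 and 15.04 RPKM in T activated, 19.4 and 39.4 RPKM in T medium, and 12.6 and 16.9 RPKM in T co-culture. Both cell types were again apart, with a log2 fold change of 3.93 (SE 0.70, adjusted p = 0.00175, edgeR).

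Ms4a1, on chromosome 19 (11249675 to 11266241, minus strand), was read in KC alone at 0.171 and 0 RPKM, which are 10 and 0 reads. In KC co-culture it was read at 0.0214 and 0.315 RPKM, which are 1 and 16 reads. The T-cell values were 3.97 and 4.24 RPKM in T activated, 5.54 and 17.5 RPKM in T medium, and 0.555 and 1.63 RPKM in T co-culture. The cell types did not overlap, and the log2 fold change was 4.90 (SE 0.96, adjusted p = 0.00294, edgeR). Ms4a1 had 27 reads over the keratinocyte and 1682 over the T-cell libraries, and did not pass the filter on low counts in keratinocytes alone. It entered this test only through the T-cell libraries, where it was high, so the p-value is no separate support. For the library at 0 reads, a count of 0 allows up to 3 reads or 0.0573 RPKM, for counting error only. Within its gene body lies a gene on the other strand, 4930526L06Rik, and Ms4a1 had 9, 26, 9 and 107 intron reads in the keratinocyte libraries, more than its exon reads in 3 of the 4. Since the counting is not stated to use strand, such reads cannot be assigned to either gene.

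**Figure D1:**
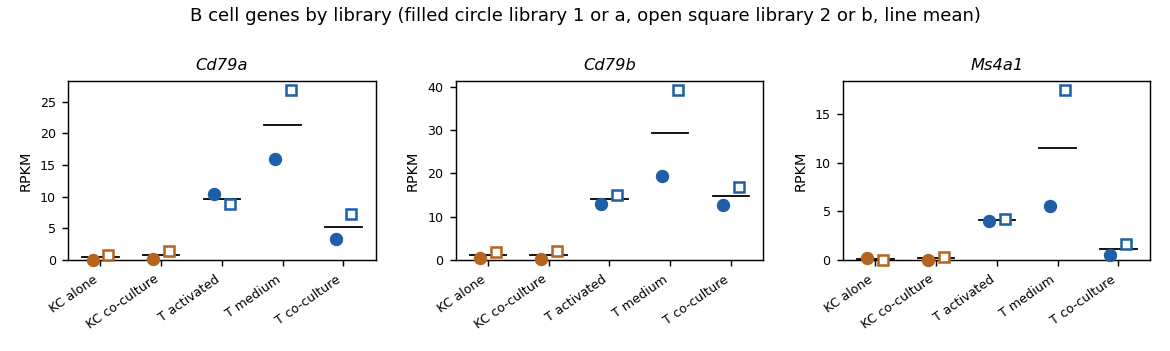
Levels of Cd79a, Cd79b and Ms4a1 (y axis, RPKM) in the 5 groups (x axis), with circles for libraries 1 or a, squares for libraries 2 or b and a line at the mean of both. All 6 T-cell libraries (blue) lie above all 4 keratinocyte libraries (brown) for each gene, and the T medium library b is the highest.

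Of the 8 member models that passed the filter on low counts in this comparison, 3 were thus higher in T cells, where 18.7% of the 13394 genes tested were higher. 1 was lower, where 30.6% of all genes tested were. The median log2 fold change was 4.12 for the B cell genes and -0.13 for all genes tested. Without the number 2 libraries of KC alone, KC co-culture and T activated, an alternative chosen after seeing the data, the log2 fold changes were 6.85 for Cd79a, 5.81 for Cd79b and 5.94 for Ms4a1. Cd207 and Itgam_2 did not pass the filter, and Ms4a1 passed it only through the T-cell libraries.

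**Figure D2:**
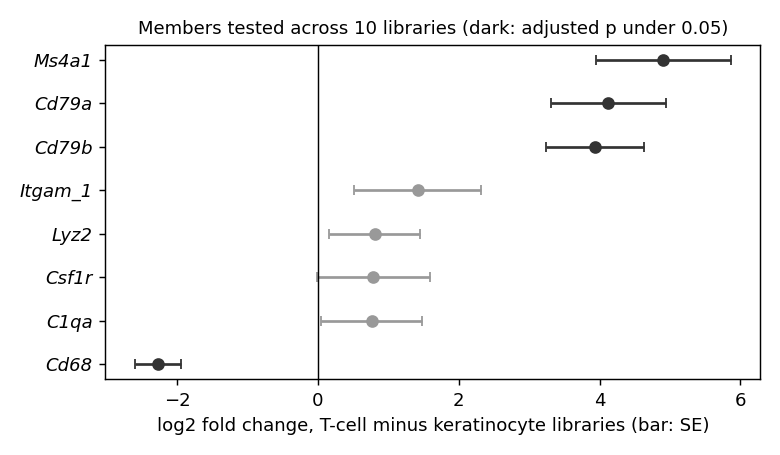
Log2 fold changes between the 6 T-cell and the 4 keratinocyte libraries (x axis) for the 8 members tested (y axis), with bars for the SE. The 3 B cell genes lie between 3.93 and 4.90 and Cd68 at -2.27 (dark), whereas the other 4 have an adjusted p over 0.05 (grey).

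The B cell genes moved with most of a wider list of 20 genes of B cells. Of its 16 members tested, 13 were higher in T-cell libraries and 1 was lower, with a median log2 fold change of 3.77. In the fit of keratinocytes alone 6 passed the filter, so the others entered this comparison only through the T-cell libraries. Of all 13394 genes tested, 18.7% were higher and 30.6% lower, and the median was -0.13. Pou2af1, a coactivator of octamer factors in B cells, had a log2 fold change of 3.27 (SE 0.59, adjusted p = 0.00198, edgeR). Pax5, the factor that holds cells in the B lineage, had no read in any keratinocyte library and between 0.0226 and 0.830 RPKM in T cells. Further genes called higher were Fcrla, Cr2, Bank1, Cd72, Cd22, Spib, Fcer2a, Ebf1, Tnfrsf13c and H2-Ob, at log2 fold changes between 2.43 for Cd22 and 6.15 for Cr2. Of these, Fcrla, Fcer2a and Tnfrsf13c overlapped between the cell types. Tnfrsf13c was read at 0.977 RPKM in KC co-culture 2 and at 0.380 RPKM in T co-culture b. Bank1, Cd72 and H2-Ob had log2 fold changes of 2.52, 4.04 and 3.97. Cd72 is also described on other lymphocytes, and its values rose from 3.63 and 2.99 RPKM in T activated to 9.97 and 6.92 RPKM in T co-culture (log2 fold change 1.53, SE 0.38, adjusted p = 0.0416, edgeR). In T medium, without keratinocytes, Cd72 was at a similar level of 9.36 and 7.27 RPKM. Its log2 fold change over T activated was 1.47 there (SE 0.38, adjusted p = 0.0584, edgeR).

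The exception was Blnk, an adaptor of B cell receptor signalling. It was read at 30.9 and 37.0 RPKM in KC alone, at 27.3 and 6.79 RPKM in KC co-culture, and at no more than 4.73 RPKM in T cells (log2 fold change -3.40, SE 0.51, adjusted p = 0.000734, edgeR). Blnk was thus lower in T-cell libraries, against the direction of its list. Cxcr5, which both B cells and some T cells use to enter follicles, was read at 1.80, 8.17, 1.93 and 10.6 RPKM in keratinocytes and at 7.92 to 20.3 RPKM in T cells, so that the ranges met.

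The constant regions of immunoglobulin are the most abundant transcripts of antibody-forming cells. The tables list Ighm, Ighd and Igkc without exons, so their RPKM of 0 is no measure of absence, and their reads stand in the column for introns. In reads per 1000000 mapped reads, Ighm had 18.0 and 73.1 reads in KC alone and 27.6 and 139.7 in KC co-culture. It had 209.5 and 273.6 in T activated, 701.4 and 554.9 in T medium, and 536.5 and 317.0 in T co-culture. The ranges of both cell types did not overlap. Igkc did overlap, with 15.4 and 58.2 in KC alone, 17.9 and 98.5 in KC co-culture, 92.2 and 220.6 in T activated, 137.0 and 228.1 in T medium, and 85.5 and 93.3 in T co-culture. Keratinocyte libraries with number 2 thus held more reads of either gene than those with number 1. No test was run on these reads.

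**Figure D3:**
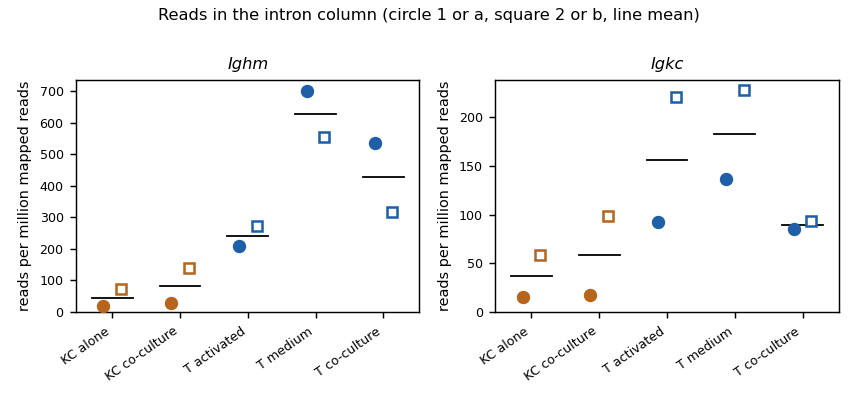
Reads listed for Ighm and Igkc in the intron column (y axis, reads per 1000000 mapped reads) in the 5 groups (x axis), with circles for libraries 1 or a, squares for libraries 2 or b and a line at the mean. Ighm separates T cells from keratinocytes, with T medium library a at 701.4, whereas Igkc in KC co-culture 2, at 98.5, lies above both T co-culture libraries.

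Among the T cells, Cd79a, Cd79b and Ms4a1 were highest in T medium and mostly lowest in T co-culture, but no change passed the test in the fit used here. The mean levels of Cd79a were 9.61 ± 1.13 RPKM in T activated, 21.4 ± 7.80 RPKM in T medium and 5.28 ± 2.82 RPKM in T co-culture (SD, n = 2 each). Those of Ms4a1 were 4.11 ± 0.20, 11.5 ± 8.47 and 1.09 ± 0.76 RPKM in the same order. Both T co-culture libraries lay below all other T-cell libraries for either gene. For Cd79b the means were 14 ± 1.46, 29.4 ± 14.1 and 14.8 ± 3.06 RPKM, and T co-culture overlapped T activated.

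Between T co-culture and T medium, 0 of the 8 members tested were called, where 0.261% of the 11863 genes tested were. Unadjusted p was under 0.05 for 2 members. Ms4a1 differed by a log2 fold change of -3.35 (SE 0.77, adjusted p = 0.342, edgeR) and Cd79a by -1.95 (SE 0.55, adjusted p = 0.688, edgeR). DESeq2 called Ms4a1 (adjusted p = 0.00237) and not Cd79a (adjusted p = 0.146). Without a filter on low counts edgeR called both, with an adjusted p of 6.566e-07 for Ms4a1 and 0.0242 for Cd79a. Over 14 alternatives, the adjusted p of Ms4a1 reached up to 1 and its log2 fold change lay between -4.46 and -2.18, and that of Cd79a lay between -2.77 and -1.43. In the B cell list, 4 of 16 genes tested had a positive log2 fold change and the median log2 fold change was -1.43, against -0.01 for all genes, while none was called.

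Between T medium and T activated, 0 of 8 members were called by edgeR or DESeq2, where 6.54% of genes were called by edgeR. Unadjusted p was under 0.05 for 3 members, with log2 fold changes of 1.32 for Cd79a (SE 0.54, adjusted p = 0.177), 1.24 for Cd79b (SE 0.48, adjusted p = 0.159) and 1.67 for Ms4a1 (SE 0.71, adjusted p = 0.193). Without T medium library b the changes were 0.80, 0.54 and 0.50. The wider B cell list moved less in this comparison. Of its 16 genes tested, 11 had a positive log2 fold change and none was called. The median was 0.41, against -0.01 for all genes, and the values ran from -5.43 for Fcer2a to 3.68 for Fcrla. T medium and T co-culture share the same 2 T activated libraries as control.

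Cd68 stood apart from the other myeloid genes, since it was highest in keratinocytes. Located on chromosome 11 (69664213 to 69666153, minus strand), it was read at 40.7 and 39.4 RPKM in KC alone and at 29.7 and 24.0 RPKM in KC co-culture. In T cells it was read at 3.83 and 4.42 RPKM in T activated, 5.56 and 6.50 RPKM in T medium, and 6.69 and 17.8 RPKM in T co-culture. The cell types did not overlap, and Cd68 was lower in T cells (log2 fold change -2.27, SE 0.33, adjusted p = 0.000561, edgeR). It was called in all 20 alternatives of this comparison. The ratio of Cd68 to C1qa lay between 1.04 and 14.9 in keratinocytes and between 0.142 and 1.155 in T cells, so that the ranges met.

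The 300 bases around the start of Cd79a and of Cd68 are shown because both genes separated the cell types, in opposite directions. They are RefSeq sequence of GRCm38.p6, with 250 bases before and 50 after the start that RefSeq gives, which lies downstream of the start of the gene model above for Cd79a and upstream of it for Cd68, at chr7:24897247-24897546 (plus strand) and chr11:69666121-69666420 (minus strand), and read 5′ to 3′ on the strand of the gene. Capitals mark GAGGAA, the core bound by PU.1 in myeloid and B cells, on either strand.
Cd79a: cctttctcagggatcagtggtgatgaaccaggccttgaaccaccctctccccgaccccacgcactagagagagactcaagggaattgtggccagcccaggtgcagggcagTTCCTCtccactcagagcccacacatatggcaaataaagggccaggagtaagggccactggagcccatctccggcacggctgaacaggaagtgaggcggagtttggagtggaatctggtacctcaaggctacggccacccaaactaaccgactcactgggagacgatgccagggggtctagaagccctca
Cd68: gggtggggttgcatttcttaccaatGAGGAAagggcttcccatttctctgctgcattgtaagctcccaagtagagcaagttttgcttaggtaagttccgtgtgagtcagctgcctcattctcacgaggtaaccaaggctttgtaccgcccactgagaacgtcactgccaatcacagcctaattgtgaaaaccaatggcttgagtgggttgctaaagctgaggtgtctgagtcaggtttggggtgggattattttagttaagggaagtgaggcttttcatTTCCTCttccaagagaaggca
Cd79a held 1 match and Cd68 2, while 28.3% of all 32851 promoters in the table held at least 1. Of the 5 members whose promoters were examined, 4 held a match (Cd207, Cd79a, Itgam and Cd68), and Lyz2 held none. The octamer ATGCAAAT, on either strand, was in 1.74% of all promoters and in none of these 5. A match is a description of the letters and not a site.

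Within the T cells Cd68 was higher in T co-culture than in T activated, by a log2 fold change of 1.80 (SE 0.60, adjusted p = 0.0955, edgeR), a difference that was not called. In this comparison 0 of 8 members were called, where 10.3% of all genes were (544 higher and 678 lower, or 396 and 762 when scaled by library size alone). Unadjusted p was under 0.05 for 1 member, Cd68, which DESeq2 called (adjusted p = 0.0368). Without a filter its adjusted p was 0.0195. Without T co-culture library b the change was 0.79, and without library a it was 2.40 and called (adjusted p = 0.0301, edgeR). Krt14, which marks keratinocytes, was read at 61.6 RPKM in T co-culture a and at 16.8 RPKM in T co-culture b, and at no more than 1.06 RPKM in the other T cells. Of the 8 keratinocyte genes, 5 were read at a higher level in T co-culture a and 2 in T co-culture b, the library with more Cd68. The latter were Col17a1 and Perp, the second at 25.1 RPKM in a and 32.1 RPKM in b, while Krt15 had no read in either. The summed level of the 8 genes was 94 RPKM in a, 51.6 RPKM in b and 1.75 to 3.87 RPKM in the other T-cell libraries. The part of such RNA in the result was not tested.

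The other expressed myeloid genes, Lyz2, C1qa and Csf1r, did not separate the cell types. Lyz2, on chromosome 10 (117277331 to 117282321, minus strand), was read in KC alone at 6.69 and 27.4 RPKM and in KC co-culture at 7.30 and 37.6 RPKM. In T cells it was read at 10.6 and 57.4 RPKM in T activated, 37.9 and 39.9 RPKM in T medium, and 31.4 and 33.6 RPKM in T co-culture. Libraries with number 2 of 3 groups were 4.11, 5.15 and 5.43 times as high as those with number 1, a larger difference than that between the cell types.

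C1qa, on chromosome 4 (136895917 to 136898803, minus strand), was read in KC alone at 2.74 and 10.4 RPKM and in KC co-culture at 4.62 and 23.0 RPKM. The T-cell values were 3.32 and 31.2 RPKM in T activated, 14.6 and 18.6 RPKM in T medium, and 15.2 and 15.9 RPKM in T co-culture. It split the same libraries as Lyz2. Csf1r, on chromosome 18 (61105572 to 61132149, plus strand), lay lower throughout, at 0.194 and 0.938 RPKM in KC alone, 0.337 and 1.79 RPKM in KC co-culture, 0.378 and 3.60 RPKM in T activated, 1.48 and 0.973 RPKM in T medium, and 0.618 and 1.43 RPKM in T co-culture. A gene on the other strand, Hmgxb3, overlaps it.

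Between T cells and keratinocytes the log2 fold changes were 0.81 (SE 0.65) for Lyz2, 0.76 (SE 0.71) for C1qa and 0.79 (SE 0.80) for Csf1r, with adjusted p of 0.327, 0.402 and 0.441 (edgeR). An alternative chosen after seeing the data left out the number 2 libraries of KC alone, KC co-culture and T activated. A single library was left in each of these groups. In it the changes were 1.85 for Lyz2 and 1.5 for C1qa (edgeR). Without T activated 2 alone they were 0.24 for Lyz2, -0.03 for C1qa and -0.02 for Csf1r. The size of these changes thus depended on which libraries were kept, while none was called in the analysis reported.

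**Figure D4:**
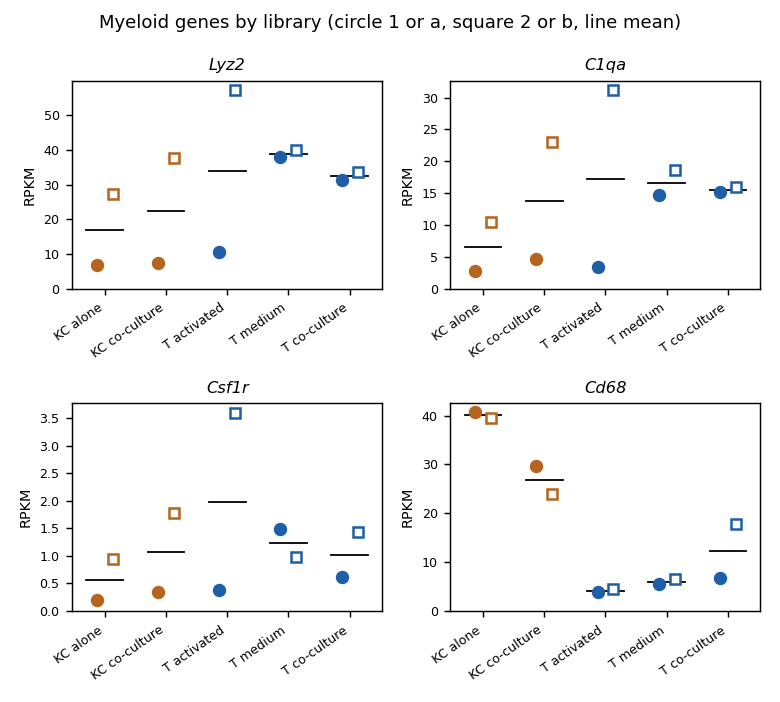
Levels of Lyz2, C1qa, Csf1r and Cd68 (y axis, RPKM) in the 5 groups (x axis), with circles for libraries 1 or a, squares for libraries 2 or b and a line at the mean. In KC alone, KC co-culture and T activated, Lyz2, C1qa and Csf1r are higher in library 2, whereas Cd68 separates keratinocytes (24.0 to 40.7) from T cells (3.83 to 17.8).

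The ratio of C1qa to Lyz2 ranged from 0.314 in T activated 1 to 0.633 in KC co-culture 1. Over the 10 libraries and 13451 genes, the patterns most like that of Lyz2 on the log2(RPKM + 0.1) scale were those of Cd4 (Pearson r = 0.990), Dkkl1 (0.989) and Pglyrp1 (0.988). Those most like C1qa were Gm10800 (0.995), Pcsk1 (0.993) and Cd4 (0.987). These points share libraries of 2 cell types and 5 groups, so the coefficients are descriptions. Cd4, the co-receptor of helper T cells, was read at 11.4 and 43.5 RPKM in KC alone, 15.0 and 84.5 RPKM in KC co-culture and 16.8 and 102.3 RPKM in T activated. In T medium it was at 67.2 and 75.9 RPKM, and in T co-culture at 64.6 and 62.0 RPKM. In KC alone 2, without T cells by its label, Cd4 and Cd3g were thus present together with Lyz2, while Cd8a was at 0.600 RPKM. For Csf1r the nearest genes were Ccr6 (0.964), Gm10717 (0.962) and Itga7 (0.959).

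**Figure D5:**
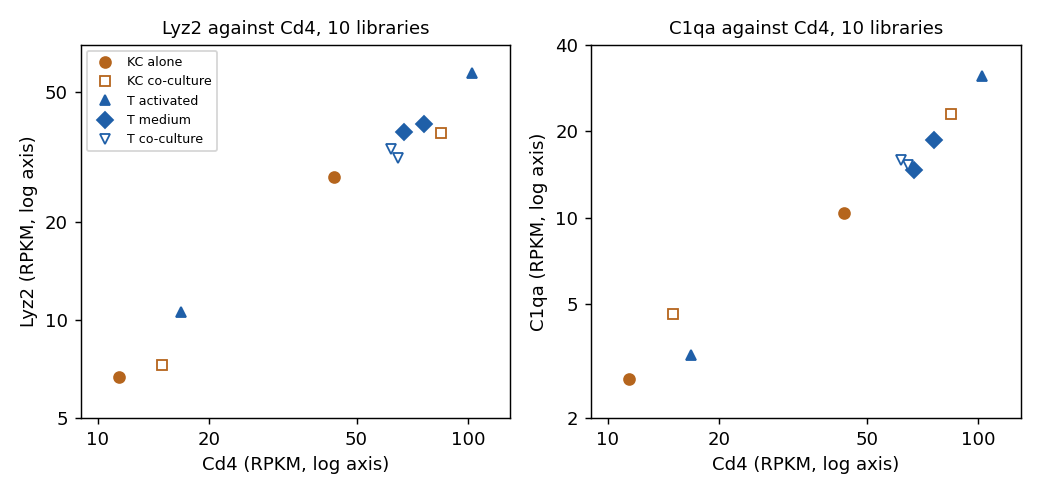
Lyz2 (left) and C1qa (right) against Cd4 in the 10 libraries, all in RPKM on log axes, with a symbol for each group (brown keratinocytes, blue T cells). KC alone 1 and KC co-culture 1 lie at the lower left with T activated 1, and T activated 2 at the upper right, with Cd4 at 102.3 RPKM.

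For the other members the nearest genes were of another kind. Cd68 was most like Hsbp1 (0.983), Rab40c (0.978) and Grb7 (0.975). Cd79a was most like Napsa (0.983), Rilpl2 (0.967) and Cenpq (0.964), and Cd79b most like Rilpl2 (0.985), B9d2 (0.984) and Lat (0.981). Over the T-cell libraries alone, r was 0.883, 0.795 and 0.827 for Cd79a and 0.83, 0.687 and 0.919 for Cd79b, in the same order. It was 0.909 or more for the nearest genes of Cd68 and Ms4a1. Ms4a1 was most like Iglc2 (0.992), a constant region of immunoglobulin light chains, followed by Cd36 (0.961) and Mzb1 (0.956), a chaperone of antibody-secreting and marginal zone B cells. Iglc2 was read at 17.1 and 48.9 RPKM in T medium and at 2.93 and 7.35 RPKM in T co-culture, while T activated had 11.4 and 15.4 RPKM. Iglc2 was picked for its likeness to Ms4a1 over these libraries, so its low level in T co-culture is no separate support. Of the reads in the intron column, those of Ighd were lowest among T cells in T co-culture. Those of Igkc overlapped between T co-culture and T activated, whereas those of Ighm were higher in T co-culture than in T activated.

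Of a wider list of 20 genes of macrophages and monocytes, 18 were tested between the cell types, of which 4 were higher and 2 lower in T cells, with a median log2 fold change of 1.07. Of all genes 18.7% were higher and 30.6% lower, so that the count of higher genes lay near the background and that of lower genes below it. Higher were Ctss, a lysosomal protease of antigen-presenting cells (2.23), Ly6c2 (5.91), Csf2rb (6.66) and Cybb (1.56). The ranges of Ctss and Cybb overlapped between the cell types. Ctss was read at 42.8 RPKM in KC co-culture 2 and at 39.3 RPKM in T activated 1. Ly6c2 marks inflammatory monocytes but also activated CD8+ T cells, and it was read at 66.8 and 22.6 RPKM in T activated against 228.7 and 130.1 RPKM in T medium and 201.1 and 222.2 RPKM in T co-culture. It was the only gene of this list called among the T-cell comparisons, with log2 fold changes of 2.16 in T medium (SE 0.51, adjusted p = 0.0458, edgeR) and 2.47 in T co-culture (SE 0.51, adjusted p = 0.0235, edgeR) over T activated. Among those lower in T cells was Cd14 (-5.87), a co-receptor for lipopolysaccharide, read in keratinocytes at 2.25 to 4.67 RPKM. C1qb and C1qc, which form C1q together with C1qa, were not called. C1qb was read at 1.74 and 5.99 RPKM in KC alone, 0.907 and 10.8 RPKM in KC co-culture, and 2.79 and 13.7 RPKM in T activated, and so followed C1qa. Tyrobp, an adaptor of myeloid and natural killer cells, was read at 1.42 and 7.84 RPKM in KC alone and at 4.99 and 19.3 RPKM in T activated.

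Lists of other leukocytes were small, and their counts stand beside the same 18.7% of all genes higher and 30.6% lower. Of 10 neutrophil genes, 2 were tested and both were lower in T cells, namely Ltf (32.0 RPKM in KC alone 1 and 0.210 RPKM in KC alone 2) and Cxcr2 (0.676 to 3.93 RPKM in keratinocytes), while Elane and Retnlg had no read in any library and Camp was read at no more than 1.38 RPKM. Of 12 genes of dendritic cells, 7 were tested, of which Flt3, Ccl22 and Cd86 were higher in T cells and Epcam, also an epithelial gene, was lower. Flt3 was read at 0.0531 to 0.618 RPKM in T cells and at 0 to 0.166 RPKM in keratinocytes, so that its ranges met. Ccl22 was read at 20.9 and 21.0 RPKM in T activated and at no more than 2.34 RPKM elsewhere, and Itgax, which encodes CD11c, at no more than 0.924 RPKM in any library. Of 6 mast cell genes 1 was tested, Hdc, which was not called and was read at no more than 2.01 RPKM, and Mcpt4 and Tpsb2 had no read. Of 6 genes of natural killer cells, all tested, Klre1 and Klra7 were higher in T cells and Klra4 was lower, with 14.7 to 23.7 RPKM in keratinocytes.

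Of other residents of the skin, melanocytes were traced by 6 genes, all lower in T cells, with Tyrp1 at 1.70 to 8.35 RPKM in keratinocytes, and fibroblasts by 6 genes, of which 4 were tested and none called (Dcn at no more than 1.70 RPKM). All 8 keratinocyte genes were lower in T cells. Of 13 T cell genes 11 were tested and 10 were higher in T cells, whereas Cd4 was not called. The genes Trdc, Trdv4, Tcrg-C1 and Tcrg-V5 of dendritic epidermal T cells are listed without exons, as are Trac and Trbc2. Trdv4 had no read in the intron column.

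No read of Cd207, the marker of Langerhans cells, was found. This gene on chromosome 6 (83671215 to 83677857, minus strand) had 0 reads in all 10 libraries, on exons as in introns, where 3 reads are equal to 0.104 to 0.139 RPKM, for counting error only. Itgam_1 (chromosome 7, 128062640 to 128118491) had between 0 and 31 reads a library, or up to 0.363 RPKM, and of these at most 3 were unique. Itgam_2, which spans most of the same region, had 0 to 2 reads. Between T cells and keratinocytes the log2 fold change of Itgam_1 was 1.42 (adjusted p = 0.219, edgeR), and it was called only without KC co-culture 1 (3.78, adjusted p = 0.0452, edgeR). It had 24 and 21 reads in KC alone, and 6 and 0 reads in KC co-culture. Since the reads could come from either model, the level of CD11b transcripts is uncertain.

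Co-culture of keratinocytes changed none of the members by the test. Of 7 members tested between KC co-culture and KC alone, 0 were called and 0 had an unadjusted p under 0.05, by edgeR or DESeq2. Of all 12515 genes tested edgeR called 0%, 901 had an unadjusted p under 0.05, and DESeq2 called 88 higher and 98 lower. Without KC co-culture 1 or 2, edgeR called 1164 or 21 genes and no member. Cd68 had a log2 fold change of -0.51 (SE 0.28, adjusted p = 0.658), Lyz2 of 0.49 (SE 1.04, adjusted p = 0.863), C1qa of 1.17 (SE 1.03, adjusted p = 0.721), Csf1r of 1.01 (SE 1.17, adjusted p = 0.770), Cd79a of 1.02 (SE 1.66, adjusted p = 0.823), Cd79b of 0.18 (SE 1.34, adjusted p = 0.965) and Itgam_1 of -2.61 (SE 1.55, adjusted p = 0.658, all edgeR). Single libraries turned the direction of 5 members. Without KC co-culture 2 the values were -1.25 for Lyz2, -0.77 for Csf1r, -0.53 for C1qa, -0.90 for Cd79a and -2.31 for Cd79b, and without KC alone 1 they were -0.21 for Lyz2 and -0.51 for Cd79b.

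When the effect of co-culture on keratinocytes was set against that on T cells (T co-culture over T medium), 0 of 8 members differed by edgeR or DESeq2, where 0.59% of the 13394 genes tested did by edgeR. Unadjusted p was under 0.05 for Ms4a1 (log2 difference 4.36, SE 1.86, adjusted p = 0.711, edgeR) and for Cd68 (-1.68, SE 0.72, adjusted p = 0.718, edgeR).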

How the data were processed

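RNA of 10 libraries in 5 groups of 2, taken from the labels, was analysed. Per the labels and the methods, the authors selected poly(A) RNA, made libraries by an NEBnext Ultra II protocol, read them from one end on a HiSeq2500 and mapped the reads in CLC Genomics Workbench at default settings. The submitters' processing notes name GRCm38. The authors deposited, for each gene, raw counts of exon, uniquely mapped exon and intron reads, and RPKM values written with decimal commas. Multi-mapped reads enter the exon counts, which could change genes with near copies. Of 25814 gene IDs, 25779 were in GENCODE vM21, 24438 with the same coordinates.

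Exon counts of all genes were tested in R 4.3.3 by the two-sided quasi-likelihood F test of edgeR 4.0.16, after filterByExpr and TMM scaling, and Benjamini-Hochberg adjustment, a call being an adjusted p under 0.05. Keratinocyte groups were compared in a fit of 4 libraries, T-cell groups in a fit of 6, and cell types in a fit of all 10. Depth limits low genes, a count of 0 allowing 3 reads. DESeq2 1.42.0, limma and other filters were alternatives. The fits were tested on simulated data. Replicates differed by far more than sampling noise (chi-square per degree of freedom 94.2 or more).

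The members and lists were chosen with earlier results of these data known. Named are all members, from each list described the up to 4 genes with the highest mean level and any called gene, and the 3 genes nearest in pattern to each member with a mean of at least 0.5 RPKM. No p is given over a list. Some genes of these lists are counted but not reported here by name.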

Additional observations from a re-analysis of the deposited data

Results flagged for a closer look

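Reads outside the exon counts were found for genes of the receptor loci, which the tables list without exons, and for introns of Ms4a1. These reads exceeded the 3 that a count of 0 allows. The highest numbers of reads in a library were 10835 for Ighm (T medium a), 252 for Ighd (T medium b) and 3936 for Igkc (T medium b). In keratinocytes, Ighm had 341 to 2305 reads, Ighd 0 to 12 and Igkc 272 to 1625. Of the T cell receptor genes, Trac reached 8021 (T medium a) and Trbc2 8901 reads (T medium b), with 557 to 3016 and 485 to 2929 in keratinocytes. Trdc reached 103, Tcrg-C1 91 and Tcrg-V5 8 reads, and the keratinocyte libraries held 0 to 8, 10 to 87 and 0 to 5 of these. Introns of Ms4a1 had up to 141 reads, in T medium b, and 107 in KC co-culture 2. No group had 4 or more libraries, so that single libraries could not be tested as outliers, and no member passed the test of a difference between cell types in the response to co-culture.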

How the results depend on the processing

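The 4 calls between T-cell and keratinocyte libraries (Cd79a, Cd79b, Ms4a1 and Cd68) held in each alternative that gave them a value. With at least 10 reads in every library the B cell genes gave none, 1 member was called and 4343 genes against 6601. In the other comparisons, the number of members called was 0 in the analysis reported. Without a filter it was 1 for T medium (Ms4a1), 2 for T co-culture over T activated (Cd68 and Ms4a1) and 2 for T co-culture over T medium (Cd79a and Ms4a1). DESeq2 called 1 in either of the last comparisons (Cd68 and Ms4a1). Leaving out single libraries gave 0 to 1 for T co-culture over T activated (Cd68 without T co-culture a, C1qa without T activated 2) and 4 to 5 between the cell types (Itgam_1 without KC co-culture 1), where a lone library is assumed to vary like the other groups. The causes were not tested.

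Counts over all genes moved more. KC co-culture called 0 genes in the analysis reported, 186 by DESeq2, 11 without a filter, 4 in a fit of all 10 libraries, and 0 to 1164 when single libraries were left out. T medium over T activated called 776, but 1947 by DESeq2, 1945 without a filter, 474 by limma on log2(RPKM + 0.1), and 24 to 1067 with single libraries left out (62 without T activated 1, 57 and 24 without T medium a and b). T co-culture over T activated called 1222, but 2368 by DESeq2, 2425 without a filter and 266 to 1093 with single libraries left out (266 without T activated 1, 498 without T co-culture b). T co-culture over T medium called 31, but 87 by DESeq2, 141 without a filter, 0 with at least 10 reads in every library, 66 and 121 by limma on log2(RPKM + 1) and log2(RPKM + 0.1), 83 in a fit of all 10 libraries and 16 to 52 with single libraries left out (19 and 16 without T medium a and b, 52 without T co-culture a). The contrast of both co-culture effects called 79, but 310 by DESeq2, 280 without a filter, 1 with at least 10 reads in every library, 135 by limma on log2(RPKM + 0.1) and 38 to 104 with single libraries left out (48 without KC alone 1, 38 and 39 without T medium a and b).

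Directions changed for members that were not called. When single libraries were left out, KC co-culture over KC alone ranged from -1.25 to 1.91 for Lyz2, -0.77 to 2.61 for Csf1r, -0.53 to 2.50 for C1qa, -0.90 to 4.45 for Cd79a and -2.31 to 1.49 for Cd79b (log2). T medium over T activated ranged from -0.44 to 2.08 for Lyz2, -1.45 to 1.88 for Csf1r, -0.78 to 2.53 for C1qa and -0.37 to 1.08 for Itgam_1. T co-culture over T activated ranged from -0.66 to 1.87 for Lyz2, -1.62 to 1.72 for Csf1r, -0.84 to 2.48 for C1qa and -0.0585 to 0.56 for Cd79b, and T co-culture over T medium from -1.03 to 0.38 for Csf1r, -0.29 to 0.21 for C1qa and -0.17 to 1.19 for Itgam_1. T cells over keratinocytes ranged from -0.0185 to 1.68 for Csf1r and -0.0349 to 1.62 for C1qa, and the contrast of both co-culture effects from -1.09 to 2.12 for Lyz2, -0.68 to 2.77 for Csf1r, -0.52 to 2.55 for C1qa and -1.39 to 2.43 for Cd79b. By limma on log2(RPKM + 1) and log2(RPKM + 0.1), Cd79b in KC co-culture was at -0.047 and -0.28. Scaled by library size alone, C1qa was at -0.036 in T medium and -0.14 in T co-culture, and Lyz2 at -0.056 in T co-culture, over T activated, where this scaling moved the median of all genes from -0.01 to -0.13 in T medium and from -0.01 to -0.17 in T co-culture.

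The numbers 1 and 2 shared by KC alone and KC co-culture come from the labels, which do not say what they mark. Deviations of same-numbered libraries correlated at r = 0.558 over genes, and at 0.243 for KC alone and T activated. With the replicate number as a block, KC co-culture called 2 genes and no member, and Cd79b was at -0.22. Between libraries of the same number, KC co-culture was above KC alone in both pairs for Lyz2, Csf1r, C1qa and Cd79a, and in 1 pair for Cd79b. For KC alone against T activated, 5186 genes were called without the block and 5758 with it, in both cases with 4 members, and Itgam_1 was at -0.32 and -0.40. The replicate block changed no other call of a member.

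RPKM from uniquely mapped reads was lower for Lyz2, at 34.6 in T medium against 38.9 and at 29.5 in T co-culture against 32.5, and for Itgam_1, at no more than 0.0196. Depth limited Cd207, Itgam and Ms4a1 in keratinocytes, which had few or no reads.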
